A study of Homo sapiens with 4 samples.

Results

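Aminoacyl-tRNA synthetases attach each amino acid to its transfer RNA, and 37 genes of this family and its scaffold were taken by symbol from the 58735 genes measured. They comprise 19 genes of cytosolic synthetases, 16 genes of mitochondrial synthetases (names ending in 2) and 2 scaffold genes, AIMP1 and AIMP2. All 37 symbols were found through GENCODE 29, and 36 passed the filter on low values, a mean of at least 1 FPKM (reads normalised to exon length and sequencing depth). The exception was SARS2, the mitochondrial seryl-tRNA synthetase. The list is a selection, and the scaffold gene EEF1E1, which is outside it, is described with the related genes.

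RNA of HT8, a human cell line labelled as colon cancer, was sequenced in 4 libraries, 2 with the genotype label control and 2 labelled PPDPF knockdown. The knockdown libraries also carry the name HT8-cas1, and what HT8 and HT8-cas1 stand for, and how the knockdown and its controls were made, cannot be read from the labels. Whether the libraries of a group are separate cultures is not stated either, and the p-values reflect the spread among these samples alone, part of which may be technical.

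Each synthetase recognises its amino acid and the matching transfer RNA and joins them at the cost of ATP, which supplies the charged transfer RNA that the ribosome uses. Mitochondria translate their own genome with a separate set of synthetases, encoded in the nucleus and imported, while GARS1 and KARS1 serve both compartments from a single gene. Several cytosolic synthetases sit in a multi-synthetase complex held together by scaffold proteins. Many cytosolic synthetase genes are targets of ATF4, the transcription factor of the amino acid response, and WARS1 is also induced by interferon gamma.

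The targeted gene was checked first and was not reduced where the label says knockdown. PPDPF (chromosome 20, 63520724 to 63522206, GRCh38) measured 237 and 266 FPKM in control replicates 1 and 2, and 281 and 283 FPKM in knockdown replicates 1 and 2. The difference, 0.16 on the log2 scale (SE 0.058), missed the threshold (adjusted p = 0.0940, limma). Without control replicate 2 it passed as higher, at 0.25 on the log2 scale (adjusted p = 0.0233, limma), and on genes with a mean of at least 5 FPKM it passed at 0.16 (adjusted p = 0.0459, limma). The groups are therefore named by their labels throughout.

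Reads in genes numbered 17069628 to 19479906 per library. The test covered 12777 genes, of which 2152 rose with the knockdown label and 1662 fell, so 29.9% passed the test in either direction, 16.8% upward and 13.0% downward. This balance depends on the scaling: 1881 rose and 2034 fell (15.9%) when libraries were scaled to reads outside the mitochondrial genome, and 2502 rose and 2709 fell (21.2%) with limma-voom. Both settings also replaced the authors' FPKM divisor by counted reads in genes. That divisor differed from the reads in genes by 1.37% and 0.895% in the controls and by -0.415% and -0.664% in the libraries labelled knockdown. The parts of the divisor and of the mitochondrial reads were not tested. In the test of the deposited FPKM, the median log2 fold change of the 12777 genes was 0.0011. All 10 markers of colon epithelium were above 0 in every library and their summed level was 2624 to 2807 FPKM in the controls and 3141 to 3167 FPKM in the libraries labelled knockdown. Of these markers 6 rose and 1 fell, and their part in the results was not tested. Summed levels were near 0 for 6 fibroblast markers (0.377 to 0.723 FPKM) and 4 endothelial markers (0.0456 to 0.185 FPKM). The 6 immune markers summed to 1.21 to 2.18 FPKM, mostly from CD14, with PTPRC and CD3E at 0. CD14 had 1.57 and 1.86 FPKM in the controls and 0.860 and 0.907 FPKM in the libraries labelled knockdown. It was the 1 immune marker tested and fell (fold change 0.695, adjusted p = 0.0335, limma). In these bulk samples, fewer cells of a type and less RNA per cell cannot be told apart.

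Cytosolic synthetases were mostly lower in the libraries labelled knockdown, by small amounts apart from WARS1, while the mitochondrial genes moved in both directions. Among the 19 cytosolic genes 6 fell (31.6%, against 13.0% of all genes tested) and 1 rose (5.26%, against 16.8%). Their median log2 fold change was -0.10, and 16 of 19 were below 0, against 49.8% of all genes. Of the 15 mitochondrial genes tested 3 fell and 2 rose, with a median log2 fold change of -0.01 and 8 of 15 below 0. When libraries were scaled to reads outside the mitochondrial genome, 1 mitochondrial gene rose and 3 fell, against 14.7% and 15.9% of all genes. Over all 36 tested members, 10 fell and 3 rose, which is 27.8% and 8.33%.

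**Figure D1:**
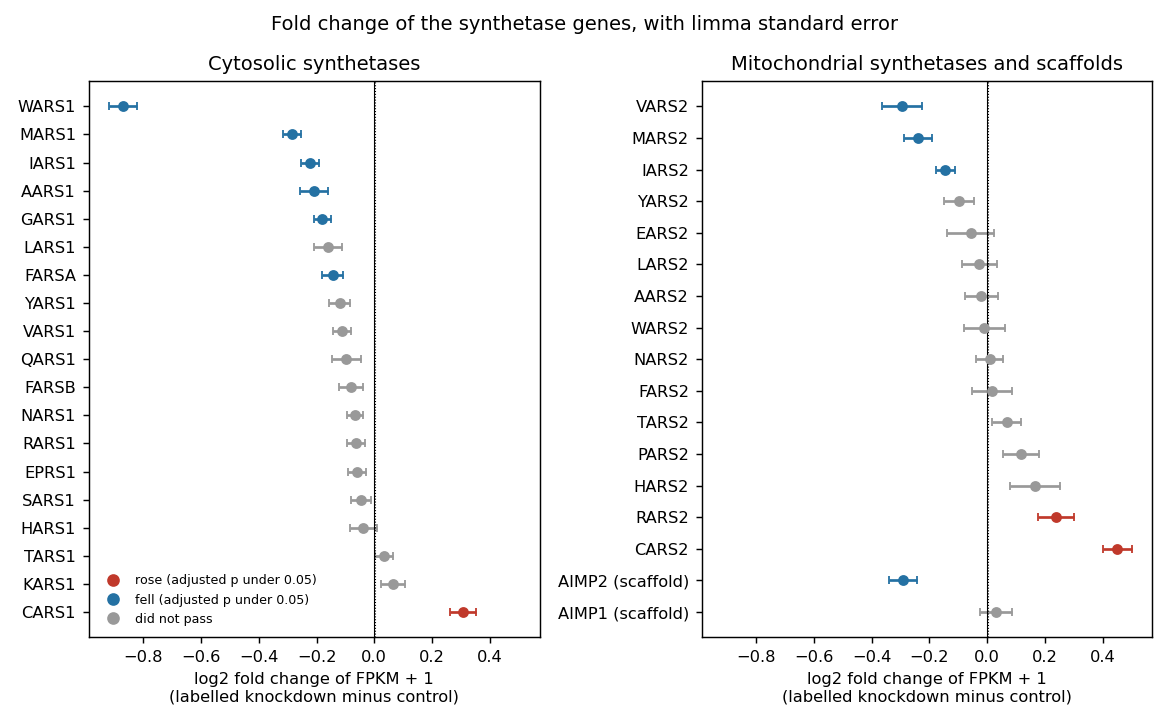
Log2 fold change of FPKM + 1 between libraries labelled knockdown and control for each tested member (x axis), with bars for the limma standard error and genes ordered by value within each panel. Of the 19 cytosolic genes 16 lie left of 0 and WARS1 stands far from the rest at -0.87, while the 15 mitochondrial genes lie on both sides.

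WARS1, the cytosolic tryptophanyl-tRNA synthetase, had the largest change of all members. WARS1 (ENSG00000140105, chromosome 14, 100333788 to 100376805) measured 99.6 and 107 FPKM in the controls and 54.6 and 57.4 FPKM in the libraries labelled knockdown. The group means were 103 ± 5.17 and 56.0 ± 1.97 FPKM (SD, n = 2), a fold change of 0.547 (-0.87 on the log2 scale, SE 0.048, adjusted p = 0.0011, limma). Both libraries labelled knockdown lay far below both controls. Without WARS1, 5 of the other 18 cytosolic genes fell (27.8%, against 13.0% of all genes tested) and 1 rose (5.56%, against 16.8%). The median log2 fold change of these 18 genes was -0.09. The mitochondrial counterpart WARS2 had 6.06 and 6.84 FPKM in the controls and 6.57 and 6.21 FPKM in the libraries labelled knockdown, so its groups overlapped.

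MARS1, IARS1, AARS1, GARS1 and FARSA also fell, with fold changes from 0.820 to 0.905. MARS1, the methionyl-tRNA synthetase (ENSG00000166986, chromosome 12, 57475445 to 57517569), had 54.0 and 53.3 FPKM in the controls against 43.8 and 43.9 FPKM, a fold change of 0.820 (-0.29 on the log2 scale, SE 0.030, adjusted p = 0.00381, limma). IARS1, the isoleucyl-tRNA synthetase (ENSG00000196305, chromosome 9, 92210207 to 92293756), had 75.4 and 77.3 FPKM against 65.6 and 65.0 FPKM, a fold change of 0.857 (adjusted p = 0.00741, limma). In both genes the gap between the groups was several times the spread within them.

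GARS1, the glycyl-tRNA synthetase of cytosol and mitochondria (ENSG00000106105, chromosome 7, 30594681 to 30634033), had 87.6 and 89.8 FPKM against 78.6 and 77.8 FPKM, a fold change of 0.883 (adjusted p = 0.0134, limma). AARS1, the alanyl-tRNA synthetase (ENSG00000090861, chromosome 16, 70252295 to 70289543), had 55.8 and 59.9 FPKM against 48.8 and 51.2 FPKM, a fold change of 0.866 (adjusted p = 0.0314, limma). FARSA, the catalytic subunit of the phenylalanyl-tRNA synthetase (ENSG00000179115, chromosome 19, 12922479 to 12934037), had 59.9 and 58.5 FPKM against 52.5 and 54.4 FPKM, a fold change of 0.905 (adjusted p = 0.0354, limma). These 3 calls were less firm than those of WARS1, MARS1 and IARS1. FARSA lost its call on leaving out any single library (limma adjusted p from 0.0745 to 0.146). AARS1 lost it without control replicate 2 or without either library labelled knockdown (0.0669 to 0.126, limma), and so did GARS1 (0.0606 to 0.0672, limma). FARSB, the other subunit of the same enzyme as FARSA, had 20.001 and 19.6 FPKM in the controls and 18.2 and 19.1 FPKM in the libraries labelled knockdown and did not pass (adjusted p = 0.196, limma).

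CARS1, the cytosolic cysteinyl-tRNA synthetase, was the cytosolic gene that rose. CARS1 (ENSG00000110619, chromosome 11, 3000922 to 3057613) had 13.1 and 13.7 FPKM in the controls and 17.0 and 16.7 FPKM in the libraries labelled knockdown, a fold change of 1.24 (0.31 on the log2 scale, SE 0.044, adjusted p = 0.00838, limma). Its mitochondrial counterpart CARS2 (ENSG00000134905, chromosome 13, 110641412 to 110713603) rose as well, from 5.90 and 6.21 FPKM to 8.57 and 8.72 FPKM, a fold change of 1.37 (0.45 on the log2 scale, SE 0.051, adjusted p = 0.00444, limma). The RNA of the cysteine genes of both compartments was thus higher in the libraries labelled knockdown, and protein was not measured.

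**Figure D2:**
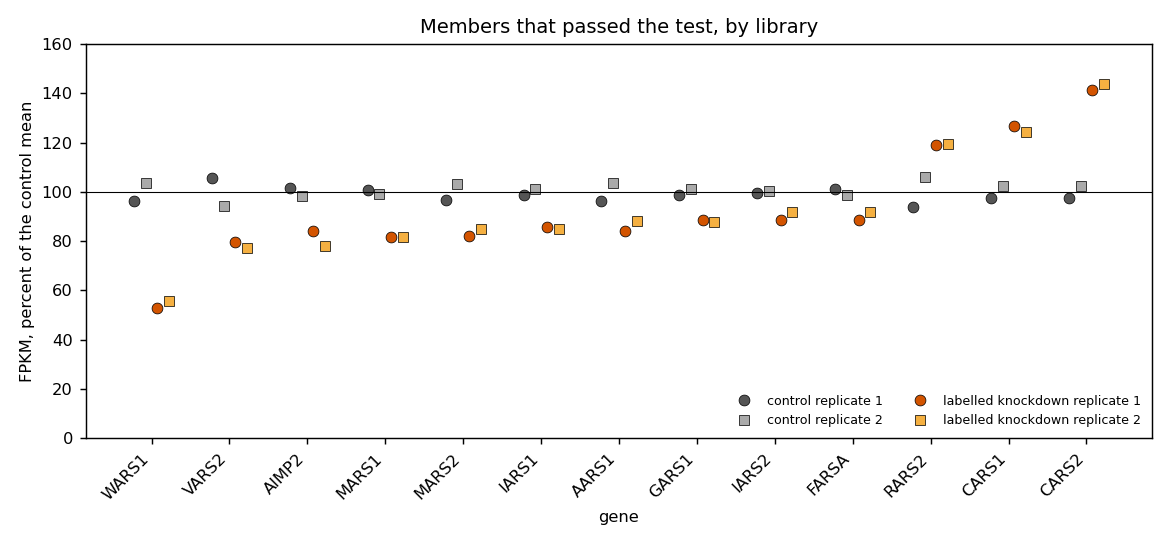
FPKM of each of the 13 members that passed the test in each of the 4 libraries, as a percent of that gene's control mean (y axis, from 0). WARS1 lies lowest and CARS2 highest in both libraries labelled knockdown, at 54.6 and 57.4 FPKM against a control mean of 103 FPKM and at 8.57 and 8.72 FPKM against 6.06 FPKM. The 13 genes were chosen by the test on these same libraries, so the lack of overlap between their groups is no separate support.

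The other 12 cytosolic genes did not pass the test. LARS1 for leucine (adjusted p = 0.0633, limma), YARS1 for tyrosine (0.0629) and VARS1 for valine (0.0514) were closest to the threshold, with fold changes of 0.895, 0.920 and 0.925. Both libraries labelled knockdown lay below both controls in each, for example 43.8 and 43.7 FPKM against 46.9 and 47.9 FPKM for VARS1. These 3 genes passed under several other settings, quantile normalization, scaling to reads outside the mitochondrial genome and limma-voom among them. QARS1 for glutamine, RARS1 for arginine, NARS1 for asparagine, SARS1 for serine, and EPRS1, which charges both glutamate and proline, had fold changes of 0.935 to 0.968. KARS1 for lysine (45.8 and 47.5 FPKM in the controls, 47.6 and 50.1 FPKM in the libraries labelled knockdown) and TARS1 for threonine (57.1 and 58.6 against 59.6 and 58.9 FPKM) were the other genes above 0 on the log2 scale. HARS1 for histidine was the 1 cytosolic gene whose groups overlapped, with 9.86 and 10.3 FPKM against 9.92 and 9.72 FPKM. Both libraries labelled knockdown lay below both controls in 15 of 19 cytosolic genes, against 33.8% of all genes tested, and above them in 3 of 19, against 35.9%.

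The cytosolic genes differed widely in level. Per length of transcript, NARS1 was the most abundant with a mean of 92.0 FPKM over the 4 libraries, followed by SARS1 (85.7), EPRS1 (85.6) and GARS1 (83.5). At the low end stood HARS1 with 9.96 FPKM, CARS1 with 15.1 FPKM and LARS1 with 17.0 FPKM. In the controls WARS1 (103 FPKM) ranked above all of them, and with the knockdown label its 56.0 FPKM lay below GARS1, IARS1 and TARS1 among others.

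Position in the complex and known regulation divide the cytosolic set further, and each count is to be read against the 13.0% of all genes tested that fell and the 16.8% that rose. Of the 7 synthetases of the multi-synthetase complex listed (EPRS1, IARS1, KARS1, LARS1, MARS1, QARS1, RARS1), 2 fell and 0 rose with limma. For the upward direction the count was also 0 at an unadjusted p under 0.05 and 0 with limma-voom. Of the 12 synthetases outside it 4 fell and 1 rose, and both groups had a median log2 fold change of -0.10. Of 12 synthetases listed as ATF4 targets 5 fell and 1, CARS1, rose, with a median of -0.14. Among the other 7 cytosolic genes 1 fell, FARSA, with a median of -0.08. By structural class, 6 of 18 tested class I enzymes fell and 3 rose (16.7%, near the 16.8% of all genes), and 3 of 15 tested class II enzymes fell and 0 rose with limma (0 upward at an unadjusted p under 0.05, 0 with limma-voom). EPRS1, which joins an enzyme of each class, was left out of that count. Whether the classes differ was not tested.

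AIMP2, a scaffold protein of the multi-synthetase complex (ENSG00000106305, chromosome 7, 6009245 to 6023834), fell. It had 29.1 and 28.2 FPKM in the controls and 24.1 and 22.3 FPKM in the libraries labelled knockdown, a fold change of 0.817 (-0.29 on the log2 scale, SE 0.049, adjusted p = 0.0131, limma). Without control replicate 1 the call was lost (adjusted p = 0.0660, limma). The other scaffold gene AIMP1 had 13.9 and 14.0 FPKM against 13.6 and 14.9 FPKM, and its groups overlapped. A share of 28.9% of the exon bases of AIMP2 lies on exons of EIF2AK1 on the opposite strand. EIF2AK1, a kinase of translation initiation factor eIF2, had 39.3 and 41.1 FPKM in the controls and 43.9 and 42.8 FPKM in the libraries labelled knockdown. Without the strand of counting, reads there cannot be assigned to 1 of the genes.

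Mitochondrial synthetases were expressed at lower levels than the cytosolic set, with a mean of 3.01 FPKM (FARS2) to 53.2 FPKM (IARS2) among those tested. VARS2 for valine, MARS2 for methionine and IARS2 for isoleucine fell, and CARS2 and RARS2 for arginine rose. MARS2 (ENSG00000247626, chromosome 2, 197705369 to 197708387) had 15.1 and 16.1 FPKM in the controls and 12.9 and 13.3 FPKM in the libraries labelled knockdown, a fold change of 0.847 (adjusted p = 0.0236, limma). IARS2 (ENSG00000067704, chromosome 1, 220094102 to 220148041) had 55.7 and 56.1 FPKM against 49.6 and 51.3 FPKM, a fold change of 0.904 (adjusted p = 0.0303, limma). The RNA of the methionine and isoleucine genes was thus lower for both compartments.

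VARS2 (ENSG00000137411, chromosome 6, 30908242 to 30926459) had 6.98 and 6.22 FPKM in the controls and 5.27 and 5.09 FPKM in the libraries labelled knockdown, a fold change of 0.814 (adjusted p = 0.0321, limma). A share of 21.99% of its exon bases is shared with GTF2H4 on the same strand, which was listed at 0 to 0.0865 FPKM, so the division of reads between them is uncertain. RARS2 (ENSG00000146282, chromosome 6, 87514378 to 87590003) rose from 12.1 and 13.6 FPKM to 15.3 and 15.3 FPKM, a fold change of 1.18 (adjusted p = 0.0448, limma). Apart from CARS2, each mitochondrial call was lost when single libraries were left out. IARS2 lost it without any of the 4 (limma adjusted p from 0.0682 to 0.131), and MARS2 without control replicate 2 or either library labelled knockdown (0.0681 to 0.0999, limma). Without control replicate 1 or either library labelled knockdown, VARS2 (0.0910 to 0.125, limma) and RARS2 (0.122 to 0.142, limma) did not pass. RARS2 also missed the threshold when libraries were scaled to reads outside the mitochondrial genome (adjusted p = 0.0574, limma). That scaling also replaced the authors' FPKM divisor.

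The other 10 tested mitochondrial genes did not pass, and in 6 of them, AARS2, EARS2, FARS2, LARS2, NARS2 and WARS2, the groups overlapped. Of the remaining 4, HARS2 for histidine had the largest difference, with 7.50 and 6.66 FPKM in the controls and 7.51 and 8.63 FPKM in the libraries labelled knockdown (adjusted p = 0.211, limma). PARS2 for proline had 7.002 and 6.89 FPKM against 8.02 and 7.24 FPKM, and TARS2 for threonine 12.9 and 13.9 FPKM against 13.9 and 14.3 FPKM. YARS2 for tyrosine had 17.4 and 18.0 FPKM against 17.1 and 15.8 FPKM. SARS2 was at a low level, with 0.704 and 0.535 FPKM in the controls and 0.753 and 0.256 FPKM in the libraries labelled knockdown, from 40, 34, 42 and 14 reads. Of its exon bases 46.2% are shared with an overlapping protein-coding gene model on the same strand that was listed at 0 in all libraries, so the level of SARS2 is uncertain.

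The summed levels of both sets were lower in both libraries labelled knockdown than in both controls, with a narrow gap for the mitochondrial set. The cytosolic genes summed to 1028 and 1043 FPKM in the controls and to 918 and 932 FPKM in the libraries labelled knockdown. The mitochondrial genes, SARS2 included, summed to 191 and 194 FPKM against 187 and 190 FPKM, and the scaffold genes to 42.9 and 42.2 FPKM against 37.7 and 37.3 FPKM. The cytosolic to mitochondrial ratio within a library was 5.39 and 5.38 in the controls and 4.92 and 4.91 in the libraries labelled knockdown. Without WARS1 it was 4.86 and 4.83 against 4.63 and 4.60, so the groups stayed apart with a smaller gap. No test is given for these sums, and with 2 libraries in each group an exact permutation test cannot go below p = 0.333. The share of reads from the mitochondrial genome itself was 2.87% and 2.76% in the controls and 2.35% and 2.19% in the libraries labelled knockdown, and its part in the result was not tested.

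Genes that charge the same amino acid in both compartments can be compared within a library, which removes any scaling factor of that library. Leaving out the pair with SARS2, the cytosolic gene was the more abundant in every library in 16 of 16 pairs, with ratios from 1.13 to 19.98. In 10 pairs the ratio was lower in both libraries labelled knockdown than in both controls, in 1 it was higher, and in 5 the groups overlapped. For the levels of single genes, 33.8% of all genes tested lay lower in this way and 35.9% higher. No such share was computed for ratios of other gene pairs, so the count of pairs is a description. Tryptophan had the largest shift, from ratios of 16.4 and 15.6 in the controls to 8.32 and 9.24. Arginine followed, with 3.26 and 2.93 against 2.46 and 2.49, where RARS2 rose and RARS1 did not pass the test. Valine was the pair with a higher ratio, 6.72 and 7.70 against 8.32 and 8.58, where VARS2 fell. For cysteine, with both genes higher, the ratio was 2.21 and 2.21 against 1.98 and 1.91. The pairs are not independent, since EPRS1 and FARS2 each stand in 2 of them.

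**Figure D3:**
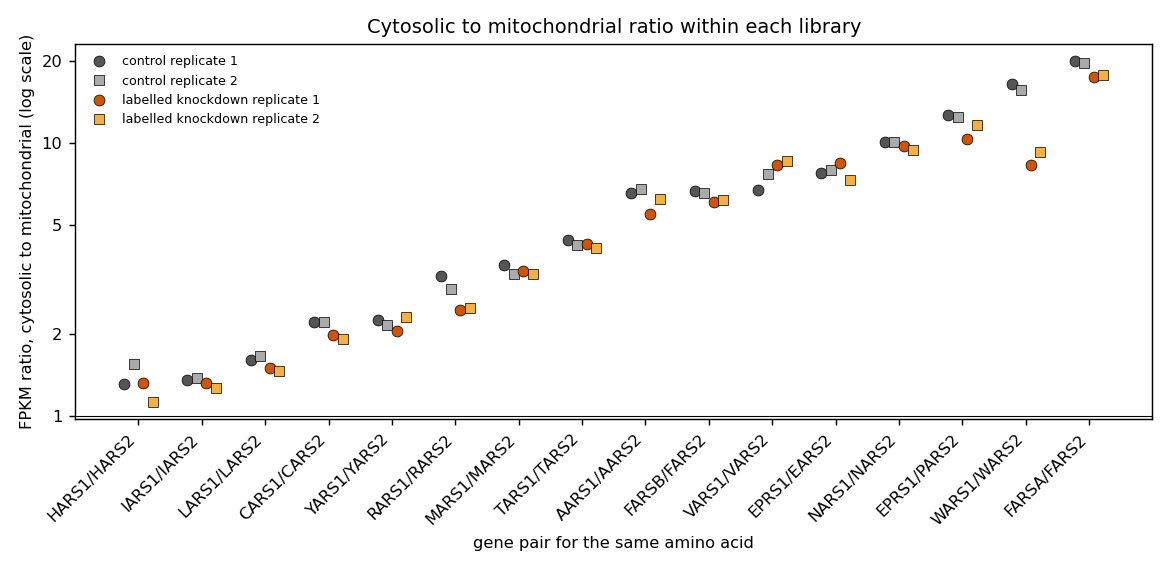
Ratio of cytosolic to mitochondrial FPKM (y axis, log scale) within each of the 4 libraries, for the 16 gene pairs that serve the same amino acid, ordered by mean ratio. The libraries labelled knockdown lie below the controls in 10 pairs, most widely for WARS1/WARS2 (8.32 and 9.24 against 16.4 and 15.6), and above them for VARS1/VARS2. No share was computed for ratios of other gene pairs.

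The sequences before the start sites were searched for motifs of the factors named above. RefSeq (GRCh38.p14) gave a promoter for 32 of the 37 members, and the 250 bases upstream of the start were searched on both strands. A single start was used for each gene, so other starts of a gene were not covered. The composite element of ATF4 and C/EBP factors (TGATGNAA) occurred in 3 of 32 members, AARS1, IARS1 and YARS2, which is 9.38%, against 3.19% of 27305 promoters and 1.20% of 9232 promoters of genes tested. AARS1 and IARS1 fell, and YARS2 did not pass. The element is in capitals in the 30-base windows below, printed 5′ to 3′ on the minus strand, to which all 3 genes belong. It spans 187 to 180 bases upstream of the start in AARS1, 13 to 6 bases in IARS1 and 197 to 190 bases in YARS2.
AARS1, chr16:70289675-70289704: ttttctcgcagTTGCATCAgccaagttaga
IARS1, chr9:92293692-92293721: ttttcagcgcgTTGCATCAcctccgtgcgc
YARS2, chr12:32756076-32756105: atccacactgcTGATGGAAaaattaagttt
AARS1 and IARS1 carry the same 8 letters, TTGCATCA, which read the motif on the opposite strand.

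The CCAAT box (CCAAT, the site of the factor NF-Y) was the most frequent of the motifs searched, in 17 of 32 members (53.1%), against 33.0% of all promoters and 35.4% of those of genes tested. It stood before WARS1, AARS1, IARS1, IARS2, MARS2 and AIMP2, which fell, and also before CARS1, CARS2 and RARS2, which rose. NARS1, QARS1, TARS1, EARS2, PARS2, TARS2 and WARS2, which did not pass, held it as well, and so did SARS2, which was not tested. WARS1 held it at 85 to 81 and at 45 to 41 bases upstream of the start used, and none of the other motifs in that window. Both boxes lie inside the annotated WARS1 gene, which ends at 100376805. The sequence before its outermost start was therefore not searched, and motifs there remain unknown. The WARS1 windows are on the minus strand, with the box in capitals.
WARS1 distal box, chr14:100376395-100376424: cgcggccgccagCCAATcagtggcggcctc
WARS1 proximal box, chr14:100376355-100376384: ccgcgcgaacagCCAATgacggcgccgtcg
In AARS1 and IARS1 the boxes come as a pair on opposite strands, shown in capitals (CCAAT or ATTGG) in the longer stretches of their promoters, also minus strand.
AARS1, chr16:70289544-70289662: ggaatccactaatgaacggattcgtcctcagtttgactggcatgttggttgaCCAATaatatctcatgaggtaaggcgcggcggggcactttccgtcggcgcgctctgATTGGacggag
IARS1, chr9:92293757-92293947: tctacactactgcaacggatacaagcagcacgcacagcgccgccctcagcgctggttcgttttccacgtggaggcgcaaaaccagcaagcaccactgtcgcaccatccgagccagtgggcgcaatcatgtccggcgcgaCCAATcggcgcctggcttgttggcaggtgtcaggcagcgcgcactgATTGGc

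The interferon-stimulated response element (GAAANNGAA) was found in GARS1, IARS1 and EARS2, 9.38% of members against 7.06% of all promoters and 5.41% of those of genes tested. The gamma-activated site (TTCNNNGAA) was found in TARS1, PARS2 and WARS2, against 6.78% and 5.43%, and the E-box (CACGTG) in IARS1, EARS2 and MARS2, against 6.49% and 9.27%. A match is a description of letters in this window and no site of binding. HARS1 and HARS2 lie head to head on chromosome 5, with RefSeq starts at 140691370 on the minus strand and 140691455 on the plus strand, 85 bases apart, and share 437 exon bases. Neither gene of this shared start region passed the test.

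Each member was also set beside the 30 tested genes around it. For WARS1 the neighbours had a median log2 fold change of 0.06, with 2 that rose and 3 that fell, against -0.87 for WARS1 itself. For MARS1 the median was -0.06, with 6 that rose and 6 that fell, and for IARS1 and AARS1 it was -0.01. DDIT3, a transcription factor of the stress response that shares 5.05% of the MARS1 exon bases on the opposite strand, fell too (fold change 0.851). CARS1 lay in the window with the highest median, 0.18, in which 14 of 30 genes rose and 9 fell, between 1752752 and 6234711 on chromosome 11. CARS2 lay in a window with a median of 0.10, where 9 rose and 3 fell. RARS2 rose although the median around it was -0.10, with 3 genes that rose and 8 that fell. The part of the neighbourhood in the CARS1 and CARS2 values was not tested.

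**Figure D4:**
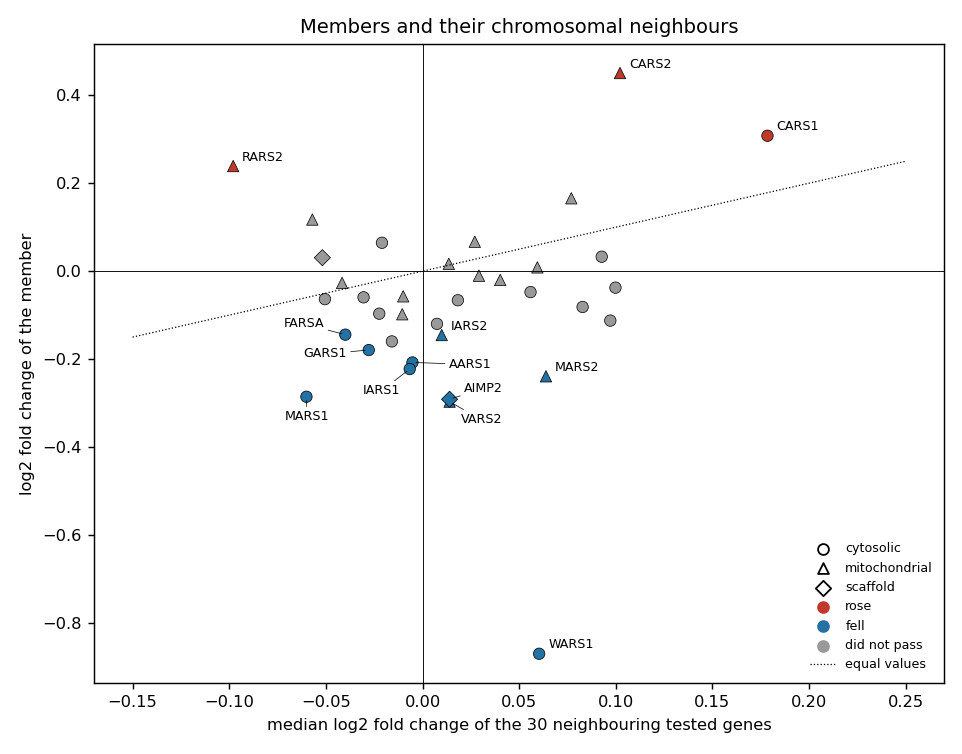
Log2 fold change of each tested member (y axis) against the median log2 fold change of the 30 tested genes around it (x axis), with symbols for the set, colours for the test and a dotted line of equal values. WARS1 sits at -0.87 over a median of 0.06, while CARS1 (0.31) and CARS2 (0.45) sit over medians of 0.18 and 0.10.

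Among charging accessories and further synthetases, the share of genes that fell was near that of all genes. Of 12 tested genes among 13 listed, 1 fell (8.33%, against 13.0% of all genes tested) and 0 rose with limma, against 16.8% (0 upward at an unadjusted p under 0.05, 0 with limma-voom), with a median log2 fold change of -0.04. SEPSECS, which completes selenocysteine on its transfer RNA, and GATB, a subunit of the mitochondrial glutamine amidotransferase, had fold changes of 0.846 and 0.856 and did not pass (adjusted p = 0.0597 and 0.0648, limma). EEF1E1, the scaffold gene outside the member list, varied within the group, with 3.96 and 5.82 FPKM in the libraries labelled knockdown against 6.18 and 5.38 FPKM.

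Among 24 tested genes of transfer RNA processing and export, 5 fell (20.8%, against 13.0% of all genes tested) and 1 rose (4.17%, against 16.8%), with a median log2 fold change of -0.06. XPOT, the nuclear exporter of transfer RNA, fell from 39.2 and 38.6 FPKM to 31.8 and 33.2 FPKM (fold change 0.840, adjusted p = 0.0091, limma). RPP38, a subunit of ribonuclease P (fold change 0.761), METTL1, a methyltransferase of transfer RNA (0.794), TSEN54 of the splicing endonuclease (0.897) and ELAC2, which trims the 3′ end (0.894), also fell. NSUN2, a cytosine methyltransferase of transfer RNA, rose from 27.0 and 28.1 FPKM to 34.6 and 34.7 FPKM (adjusted p = 0.00451, limma).

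Of 8 tested elongation factor genes 2 rose and 1 fell (12.5%), against 16.8% and 13.0% of all genes tested. EEF1A1, which delivers charged transfer RNA to the ribosome, fell from 1452 and 1451 FPKM to 1113 and 1163 FPKM (fold change 0.784, adjusted p = 0.00283, limma). EEF1D, a subunit of its exchange factor, rose from 11.05 and 11.4 FPKM to 16.4 and 15.8 FPKM (fold change 1.40, adjusted p = 0.00254, limma). GFM2, a mitochondrial factor, rose with a fold change of 1.19.

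Genes of the GCN2 and ATF4 amino acid response, the pathway that senses uncharged transfer RNA, were mostly lower. Of 22 tested genes 11 fell, against 13.0% of all genes tested, and 1 rose, with a median log2 fold change of -0.14. PHGDH, the entry enzyme of serine synthesis, fell from 47.7 and 47.5 FPKM to 28.6 and 29.2 FPKM (fold change 0.615, adjusted p = 0.000886, limma). The inhibitor TRIB3 (fold change 0.767), the amino acid transporter SLC7A5 (0.786) and the mitochondrial folate enzyme MTHFD2 (0.789) fell too. ATF4 itself had 259 and 277 FPKM in the controls and 247 and 244 FPKM in the libraries labelled knockdown and did not pass (adjusted p = 0.0726, limma). ATF3, another transcription factor of the response, was the gene that rose (fold change 1.40). ASNS, the asparagine synthetase and a standard target of ATF4, had 1.58 and 1.59 FPKM against 1.95 and 2.07 FPKM and did not pass (adjusted p = 0.148, limma).

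The tested genes listed for the interferon gamma response were lower too, and whether this bears on WARS1 was not tested. Of 7 tested genes among 11 listed, 5 fell (71.4%, against 13.0% of all genes tested) and 0 rose with limma, against 16.8% (0 upward at an unadjusted p under 0.05, 0 with limma-voom), with a median log2 fold change of -0.41. PSMB9, a subunit of the immunoproteasome, fell from 6.94 and 7.88 FPKM to 2.41 and 2.57 FPKM (fold change 0.416, adjusted p = 0.00134, limma). The peptide transporter genes TAP2 (fold change 0.684) and TAP1 (0.751) and the immunoproteasome gene PSMB8 (0.844) fell as well. IRF1 and CXCL10, with fold changes of 0.896 and 0.815, did not pass (adjusted p = 0.140 and 0.0698, limma). GBP1, GBP2, CIITA and IDO1 were too low to be tested and went both ways. Mean FPKM in control and knockdown libraries was 0.551 and 0.158 for GBP1 and 0.0312 and 0 for IDO1. It was 0.0615 and 0.0841 for GBP2 and 0.122 and 0.158 for CIITA.

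Of 10 growth genes 4 fell and 1 rose, against 13.0% and 16.8% of all genes tested, with a median log2 fold change of -0.15. MYC fell from 77.3 and 79.7 FPKM to 60.4 and 62.7 FPKM (fold change 0.787, adjusted p = 0.00368, limma). NCL, DKC1 and NOP56, which act in ribosome production, fell with fold changes of 0.844, 0.790 and 0.861, while ODC1, the first enzyme of polyamine synthesis, rose with a fold change of 1.11. Over the 83 tested genes of these related lists 27 fell (32.5%) and 5 rose (6.02%), with a median log2 fold change of -0.13. The lists were assembled for the family after results of these data were known, so their counts are descriptions.

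**Figure D5:**
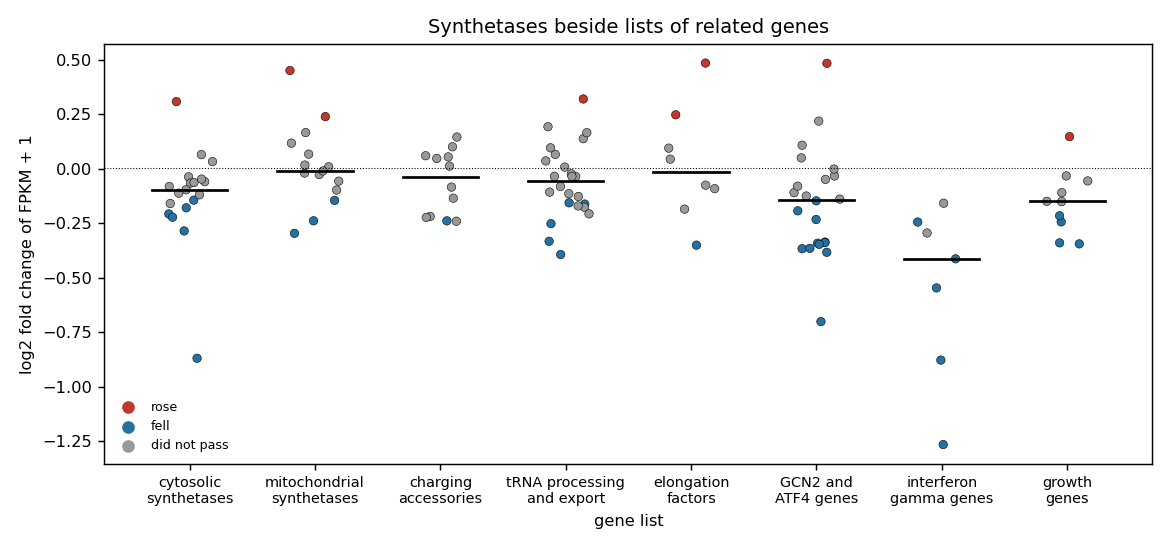
Log2 fold change of FPKM + 1 of each tested gene (y axis) in the cytosolic and mitochondrial sets and in 6 lists of related genes, with a black line at each list's median and colours for the test. The median is -0.10 for the cytosolic synthetases, -0.01 for the mitochondrial ones, -0.14 for the GCN2 and ATF4 genes and -0.41 for the interferon gamma genes.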

How the data were processed

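RNA-seq of 2 control libraries and 2 libraries labelled PPDPF knockdown was analysed. The authors deposited FPKM per gene, 1 table per library. Alignment used HISAT2 2.0.5, and the build is named as hg18, per the submitters' processing notes. For the counting tool and its strand setting the sources used here give nothing. All 58735 gene IDs matched GENCODE 29, so coordinates are on GRCh38. FPKM multiplied by exon length gave whole reads for 100% of values above 0, within 0.01 read. Libraries of a group differed by more than sampling noise (chi-square per gene of 2.43 in control and 2.31 in knockdown).

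Genes with a mean of at least 1 FPKM (12777) entered a limma-trend fit of log2(FPKM + 1), in limma 3.58.1 under R 4.3.3, with 2 residual degrees of freedom. Tests were two-sided, and a gene was called at a Benjamini-Hochberg adjusted p under 0.05 over all genes tested. Fold changes are of FPKM + 1, which understates the change of low genes, and errors beside means are SD over n = 2. The fit was tested on simulated data. The members and all lists were chosen with earlier results of these data known. The rule for named genes took the 37 members, PPDPF, ATF4, EEF1E1 and up to 4 genes with the smallest p per related list. A few of these are not reported here. ATF3, ASNS, DDIT3, PSMB8, IRF1, CXCL10, TSEN54, ELAC2, ODC1 and genes that overlap a member were named outside it, after their values were seen. So were GBP1, GBP2, CIITA, IDO1 and CD14.

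Alternatives were quantile normalization, scaling to reads outside the mitochondrial genome or to the median ratio, no filter, a mean of at least 5 FPKM, a pseudocount of 0.1, limma-voom on the recovered reads, a replicate block, and each library left out. Python 3.11.15 was used with numpy 2.4.6, pandas 2.3.3 and matplotlib 3.10.9.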

Additional observations from a re-analysis of the deposited data

How the results depend on the processing

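WARS1, MARS1, IARS1, CARS1 and CARS2 kept their calls in all 12 alternatives, with limma adjusted p up to 0.0167, 0.0289, 0.0444, 0.0488 and 0.0293. Of 19 cytosolic genes 16 were below 0 in each setting and 17 under quantile normalization. The counts of calls that follow are to be read against the share of all genes tested in the same setting. With a library left out 1 group holds 1 sample, so shares by direction are not given and those counts are descriptions. In the main fit 16.8% rose and 13.0% fell, against 19.6% and 21.2% with limma-voom and 3.92% and 2.53% with no filter. Genes called numbered 3814, against 1868 with no filter and 1970 to 2167 with a library left out, where fewer samples were fitted. Cytosolic calls numbered 7 (6 lower), 13 (12 lower) with limma-voom, and 4 to 6 (3 to 5 lower) with a library left out. Mitochondrial calls numbered 5 (2 higher, 3 lower), against 1 with no filter (1 higher, 0 lower), and 1 to 3 with a library left out (1 to 2 higher, 0 to 1 lower). Scaling to reads outside the mitochondrial genome left 1 higher, in a setting where 14.7% of all genes rose. The scaffold call went to 0 with no filter and 0 to 1 with a library left out. Related genes called numbered 32, against 52 with limma-voom and 20 to 24 with a library left out.

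The log2 fold change of PPDPF was 0.16 on genes of at least 5 FPKM and 0.14 with limma-voom, where it passed as higher, and 0.081 to 0.25 with a library left out. Signs turned only among genes that did not pass: TARS1 was -0.024 and NARS2 -0.016 under quantile normalization, FARS2 -0.0076 and NARS2 -0.021 when scaled to reads outside the mitochondrial genome, and FARS2 -0.0014 and NARS2 -0.014 with limma-voom. With a library left out, AARS2 ranged from -0.069 to 0.029, EARS2 from -0.17 to 0.051, LARS2 from -0.094 to 0.0404, NARS2 from -0.018 to 0.036, WARS2 from -0.086 to 0.065 and AIMP1 from -0.032 to 0.093. Where a call changed, the cause was not tested. SARS2, with 14 to 42 reads per library, was too low to be tested under the filter.

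Libraries share only a replicate number: same-numbered deviations from the group means correlated at r = -0.0021 over 12777 genes. With a replicate block 14.9% of all genes tested rose and 10.996% fell. In that setting 1 cytosolic gene was called higher and 5 lower, and 2 mitochondrial genes higher and 3 lower. Among members the call of FARSA alone was lost (limma adjusted p = 0.0595). A control library or a knockdown library left alone is assumed to vary like the other group.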
